A study of Mus musculus with 18 samples.

Results

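Ribosome biogenesis is represented here by 42 named genes whose products make, modify and assemble ribosomal RNA in the nucleolus. Of these, 41 had a row among the 14419 genes of the deposited table, and Noc2l was not analysed here. The genes were taken by symbol from this list. Adult C57BL/6 mice, all male, were given tamoxifen, a drug that binds estrogen receptors, or its vehicle, corn oil, and cells were then sorted from their bone marrow. The 6 groups of 3 libraries each were ST cells (short-term haematopoietic stem cells) after 2 weeks of tamoxifen and after 2 weeks of oil, LT cells (long-term haematopoietic stem cells) after 2 weeks of tamoxifen and after 2 weeks of oil, and MPPs (multipotent progenitors) after 1 week of tamoxifen and after 1 week of oil. No allele or transgene is named for any group, and the series' design text calls the 3 libraries biological replicates. LT and ST libraries carry the labels A, B and C, and MPP libraries the labels 1, 2 and 3.

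RNA polymerase I transcribes the ribosomal DNA into a single long precursor. Small nucleolar ribonucleoproteins (snoRNPs) guide its methylation and pseudouridylation, the small-subunit processome cuts and folds the part that becomes the small ribosomal subunit, and a second set of factors builds the large subunit. The production of ribosomes follows cell growth, many of its genes are targets of the transcription factor Myc, and haematopoietic stem cells are known for a low rate of protein synthesis.

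Levels are given in the deposited normalised units, a linear scale on which 1 read was worth 0.203 to 0.331 units, depending on the library. The libraries held 2728800 to 5279821 reads in the listed genes, and a member had between 21 reads (Rrp9, in the library with the fewest) and 14377 reads (Npm1). All members passed the filter on low values, 1 unit in at least 3 libraries. Changes are log2 differences between group means of log2(value + 1). Adjusted p-values are those of limma with Benjamini-Hochberg adjustment over all 14419 genes, and "past the threshold" means an adjusted p under 0.05. All 13 stem and progenitor marker genes were in the table. Flt3, a receptor of multipotent progenitors, averaged 681 ± 31 units in oil-treated MPPs, against 142 ± 52.3 in ST and 83.1 ± 34.4 in LT cells in oil (SD, n = 3 each). LT tamoxifen library A stood apart from the other LT libraries, with 25.5% of its reads in mitochondrial ribosomal RNA against 17.7% to 18.7%. Outside the LT cells, ST tamoxifen library A came near it at 24.4%, followed by MPP tamoxifen library 1 at 22.2%.

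Per kilobase of coding sequence the members spanned a wide range of levels. Npm1, the nucleolar chaperone nucleophosmin, was highest at a mean of 2532 units per coding kilobase over the 18 libraries. Ncl, nucleolin, followed at 740, and the box C/D protein Nop56 at 250. Rrp12, a factor of small-subunit export, was lowest at 5.8 and Rrp9, a protein of the U3 snoRNP, had 9.01. In units not divided by length, the 41 members together summed to 9503 to 10952 in ST tamoxifen libraries and 6712 to 6948 in ST oil libraries. The sums were 6934 to 10639 in LT tamoxifen and 5496 to 6375 in LT oil libraries, and 6113 to 6841 in MPP tamoxifen and 5828 to 6092 in MPP oil libraries. In each of the 3 populations the tamoxifen sums lay above all the oil sums. In MPPs they nearly met, at 6113 at least with tamoxifen and 6092 at most with oil. These are bulk libraries, in which fewer cells of a type and less RNA per cell cannot be told apart.

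**Figure D1:**
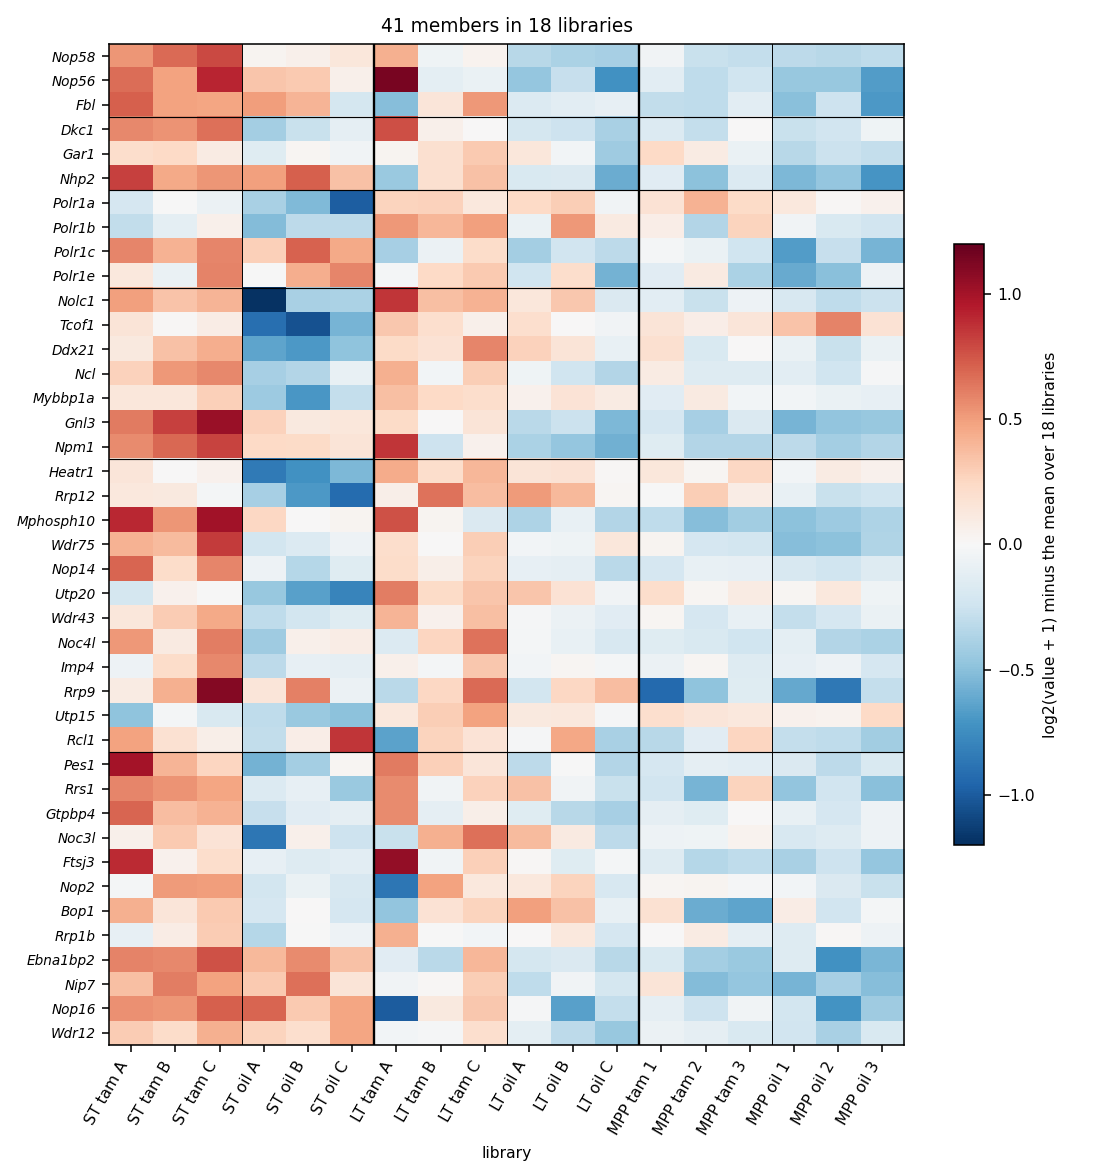
Each row is a member, grouped by role, and each column a library; colour gives log2(value + 1) minus the member's mean over the 18 libraries. The 3 ST tamoxifen columns are mostly red beside mostly paler or blue ST oil columns, and LT tamoxifen library A (Nop56 at 891 units, Nop16 at 12) differs from libraries B and C in both directions.

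The first question was whether tamoxifen moved these genes in each population. In ST cells, 19 of the 41 members rose with tamoxifen and 0 fell, while 6.01% of all genes tested were called higher and 3.6% lower, 9.61% in either direction. At an unadjusted p under 0.05 there were 25 members, all of them higher, against 3614 of all 14419 genes in either direction. edgeR and DESeq2 on the recovered reads each called 19 members. The change was above 0 for 40 members, with a median of 0.51 against 0.01 over all genes tested, and ran from -0.12 for Polr1e to 1.07 for Nolc1. The 3 tamoxifen values lay above the 3 oil values for 29 members and below them for 0, against 14.8% and 12.2% of all genes. By role, the threshold was passed by 6 of 7 nucleolar phosphoproteins and regulators, 7 of 12 small-subunit factors, 3 of 12 large-subunit factors, 1 of 3 box C/D proteins, 1 of 3 H/ACA proteins and 1 of 4 RNA polymerase I subunits. Quantile normalisation changed the split of all genes called in ST cells to 606 higher and 554 lower, against 867 and 519, and left 18 members higher and 0 lower.

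**Figure D2:**
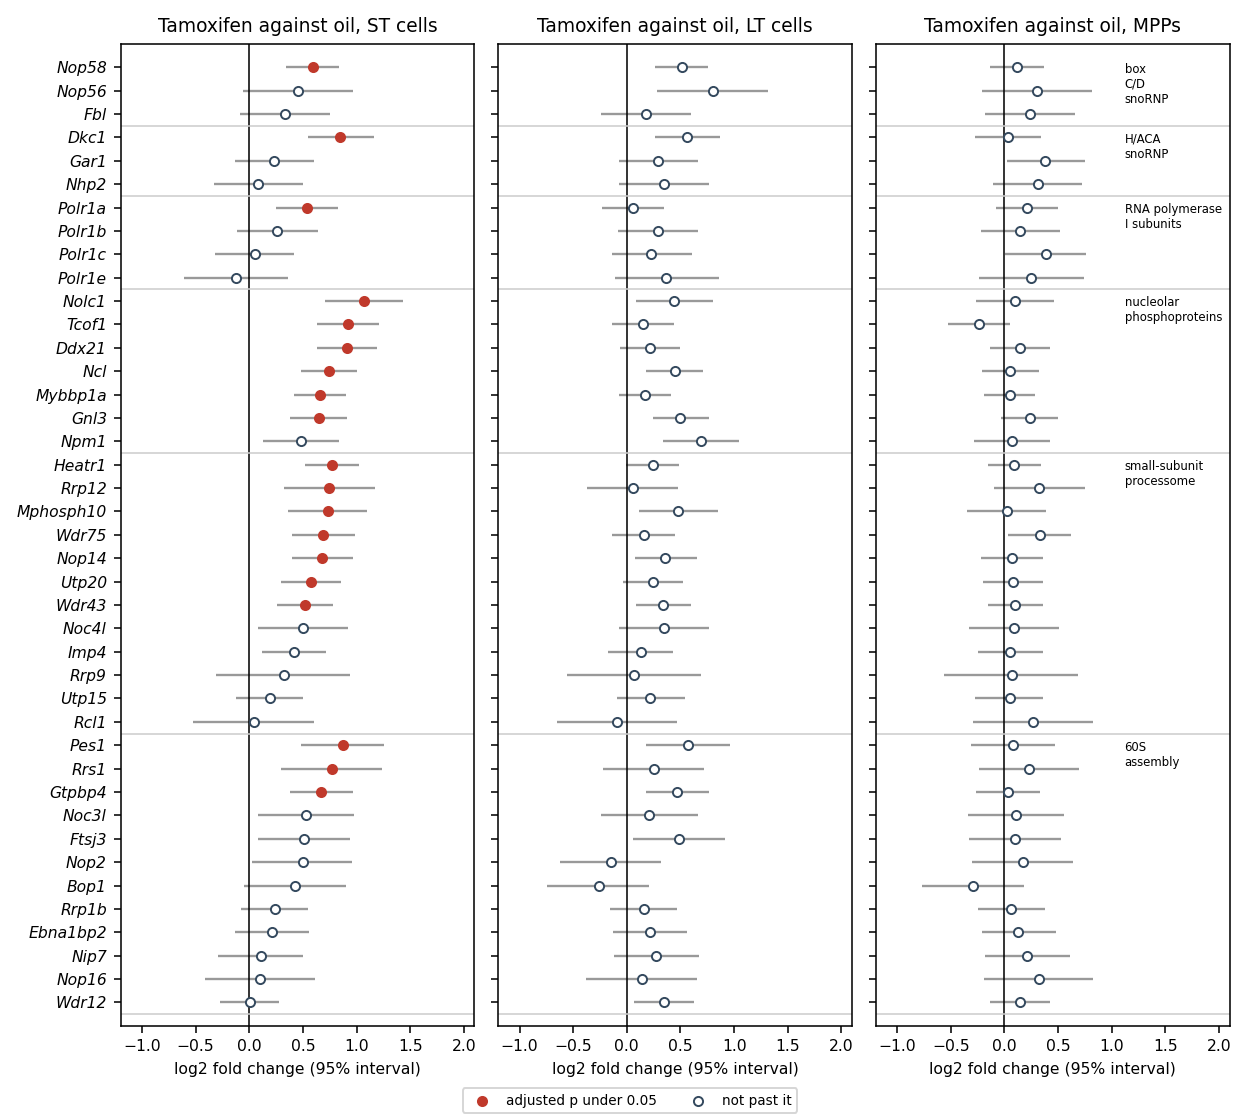
Points are log2 fold changes of tamoxifen over oil for the 41 members in ST cells, LT cells and MPPs, bars are 95% intervals from limma, and filled points have an adjusted p under 0.05. Filled points occur only in ST cells, where 40 of 41 changes are above 0; the medians are 0.51 in ST cells, 0.25 in LT cells and 0.11 in MPPs.

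Promoters are shown for the members that rose in ST cells and hold an E-box, the 6-base site CACGTG that Myc and related factors are known to bind, searched on both strands (the site reads the same on each). The sequences are RefSeq's (GRCm38.p6) and run from 250 bases before to 50 bases after the annotated start, 5′ to 3′ on the gene's own strand, with the E-box in capitals. Utp20 is at chr10:88826765-88827064 on the minus strand, Pes1 at chr11:3963725-3964024, Mybbp1a at chr11:72441077-72441376 and Wdr43 at chr17:71615965-71616264, the last 3 on the plus strand.
Utp20: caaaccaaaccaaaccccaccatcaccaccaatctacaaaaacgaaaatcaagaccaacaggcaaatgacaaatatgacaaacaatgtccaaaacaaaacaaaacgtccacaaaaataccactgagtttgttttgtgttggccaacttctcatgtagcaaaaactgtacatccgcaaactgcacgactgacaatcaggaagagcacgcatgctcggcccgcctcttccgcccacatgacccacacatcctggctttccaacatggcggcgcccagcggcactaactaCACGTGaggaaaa
Pes1: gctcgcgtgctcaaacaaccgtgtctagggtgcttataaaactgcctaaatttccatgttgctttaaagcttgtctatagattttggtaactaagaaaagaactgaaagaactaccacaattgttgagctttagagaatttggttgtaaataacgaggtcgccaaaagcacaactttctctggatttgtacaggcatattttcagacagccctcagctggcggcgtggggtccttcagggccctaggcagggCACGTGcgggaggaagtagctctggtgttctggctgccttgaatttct
Mybbp1a: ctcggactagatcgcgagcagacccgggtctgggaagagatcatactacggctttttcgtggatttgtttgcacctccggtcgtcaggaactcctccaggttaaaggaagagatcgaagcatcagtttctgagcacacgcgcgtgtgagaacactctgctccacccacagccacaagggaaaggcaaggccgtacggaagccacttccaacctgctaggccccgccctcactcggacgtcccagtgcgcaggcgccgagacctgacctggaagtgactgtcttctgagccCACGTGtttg
Wdr43: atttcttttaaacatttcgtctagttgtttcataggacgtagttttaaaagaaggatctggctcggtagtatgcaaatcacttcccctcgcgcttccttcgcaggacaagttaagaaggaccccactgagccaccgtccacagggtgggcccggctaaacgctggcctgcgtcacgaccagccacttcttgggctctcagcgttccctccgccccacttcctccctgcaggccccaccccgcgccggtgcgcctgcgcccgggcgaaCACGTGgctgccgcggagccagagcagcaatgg
The first letter of the E-box lay 37 bases after the annotated start in Utp20, 2 in Pes1, 40 in Mybbp1a and 17 in Wdr43. Of the 41 members, 35 were matched, with 38 promoters. The E-box was present in 6 of the 38 (15.8%), against 9.83% of 11940 promoters of genes in the table and 7.15% of all 32851 promoters. It was present in 4 of 16 promoters of members that rose in ST cells (25%) and in 2 of 22 promoters of the other members (9.09%), those of Imp4 and Nop2. These shares rest on few promoters. The CAAT box (CCAAT), also searched, was present in 34.2% of the 38, against 37.8% of promoters of genes in the table. Its shares were 31.2% for members that rose in ST cells and 36.4% for the other members. The palindromic estrogen response element with any 3 bases between its arms, searched on both strands, had 0 matches in the 38 windows. It was found in 0.07% of all promoters and 0.00838% of promoters of genes in the table. At such low rates 0 matches in 38 windows says little about the members. These matches describe the letters of the windows and were not tested as binding sites.

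The nucleolar phosphoproteins and regulators had the largest median change of the 6 role groups in ST cells, 0.74. Nolc1, a chaperone of snoRNPs, measured 145, 130 and 136 units in ST tamoxifen libraries A, B and C, against 44.6, 78 and 78.4 in ST oil libraries, a change of 1.07 (SE 0.17, adjusted p = 0.000653). Tcof1, treacle, which helps RNA polymerase I act on ribosomal DNA, measured 97.4, 88.7 and 93.3 units in tamoxifen against 46.2, 41.9 and 59.1 in oil, a change of 0.92 (SE 0.14, adjusted p = 0.000274). Ddx21, an RNA helicase of the nucleolus, measured 183, 216 and 228 units in tamoxifen against 108, 104 and 120 in oil, a change of 0.91 (SE 0.14, adjusted p = 0.000244). In all 3 genes every tamoxifen library exceeded every oil library by more than the range within either group. Ncl, Mybbp1a (a nucleolar regulator of transcription) and Gnl3 (nucleostemin, a nucleolar GTPase of stem and dividing cells) also rose, by 0.65 to 0.74. Npm1 was the member of this group that missed the threshold in ST cells. It measured 3112, 3388 and 3692 units in tamoxifen against 2476, 2463 and 2346 in oil, without overlap, a change of 0.48 (SE 0.17, adjusted p = 0.0772). Npm1 and Ncl together held 52.4% to 56.0% of the members' summed level in ST tamoxifen libraries and 53.7% to 54.5% in ST oil libraries. The other 39 members summed to 4389 to 4961 units in ST tamoxifen and 3067 to 3163 in ST oil libraries, again without overlap.

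**Figure D3:**
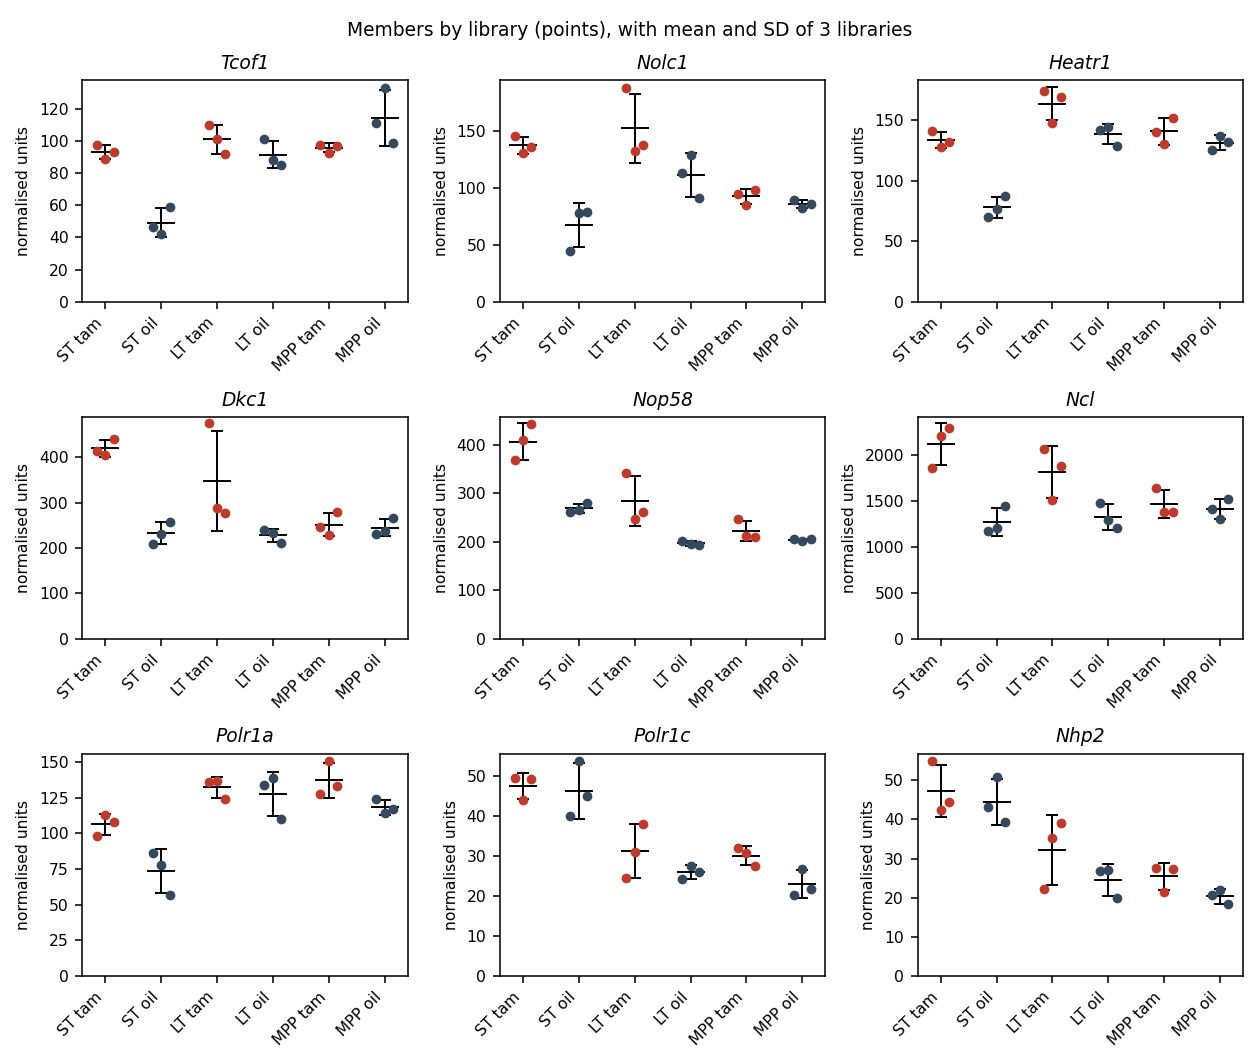
Points are libraries (tamoxifen red, oil dark), and bars the mean and SD of 3 libraries, in normalised units on axes that start at 0, for 9 members. Tcof1, Nolc1, Heatr1, Dkc1, Nop58, Ncl and Polr1a were higher in every ST tamoxifen than in every ST oil library, whereas Polr1c and Nhp2 overlapped.

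Among the small-subunit factors, Heatr1 is a processome subunit tied to ribosomal DNA transcription. It measured 141, 128 and 132 units in ST tamoxifen libraries against 70.3, 76.7 and 87.5 in ST oil libraries, a change of 0.77 (SE 0.12, adjusted p = 0.000382). Nop14, a processome scaffold protein, measured 124, 89 and 115 units in tamoxifen against 73.2, 59.8 and 69 in oil, a change of 0.68 (SE 0.14, adjusted p = 0.00299). Wdr75, in the same processome module as Heatr1, measured 95, 92.1 and 127 units in tamoxifen against 60.7, 63.1 and 67.6 in oil, a change of 0.69 (SE 0.14, adjusted p = 0.00325). In none of the 3 did the groups overlap. Rrp12, Mphosph10, Utp20 and Wdr43 rose as well, by 0.52 to 0.74. The remaining 5 of the 12, Noc4l, Imp4, Rrp9, Utp15 and Rcl1, had changes of 0.04 to 0.50 that did not pass. Rrp9 had the lowest mean level of the members. It measured 12.9, 16.4 and 26.8 units in tamoxifen and 13.3, 18.7 and 11.3 in oil, overlapping, a change of 0.32 (95% interval -0.31 to 0.94).

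Of the 12 large-subunit factors 3 rose in ST cells. Pes1, which with Bop1 and Wdr12 forms the PeBoW complex of large-subunit maturation, measured 85.4, 56.1 and 50.5 units in ST tamoxifen against 28.1, 31.6 and 42.9 in ST oil libraries, a change of 0.87 (SE 0.19, adjusted p = 0.00491). Its partners had changes of 0.43 (Bop1, adjusted p = 0.251) and 0.01 (Wdr12, adjusted p = 0.984). Tamoxifen library A was the highest in Pes1, and libraries B and C still lay above all 3 oil values. Gtpbp4, a nucleolar GTPase of large-subunit assembly, measured 182, 145 and 150 units in tamoxifen against 92, 102 and 104 in oil, a change of 0.67 (SE 0.14, adjusted p = 0.00432). Rrs1, needed for large-subunit assembly, measured 30.7, 29.6 and 28.4 units in tamoxifen against 17.9, 18.7 and 14.5 in oil, a change of 0.77 (SE 0.23, adjusted p = 0.0325). The groups did not overlap in either gene. The other 9 of the 12 had changes of 0.01 (Wdr12) to 0.53 (Noc3l).

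Each snoRNP had 1 member past the threshold. Nop58, a core box C/D protein, measured 368, 409 and 443 units in ST tamoxifen against 261, 266 and 279 in ST oil libraries, a change of 0.59 (SE 0.12, adjusted p = 0.00313). Dkc1, the pseudouridine synthase of H/ACA snoRNPs, measured 414, 405 and 440 units in tamoxifen against 209, 231 and 258 in oil, a change of 0.85 (SE 0.15, adjusted p = 0.000877). Both were higher in every tamoxifen library. Their complex partners had smaller changes that did not pass. Nop56 had 0.45 and Fbl, the methyltransferase of box C/D snoRNPs, 0.33, while Gar1 had 0.23 and Nhp2 0.08.

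Of the RNA polymerase I subunits, Polr1a, the largest, measured 98.2, 113 and 108 units in ST tamoxifen against 86.4, 78 and 56.4 in ST oil libraries, a change of 0.54 (SE 0.14, adjusted p = 0.0149). The groups did not overlap, and the oil values spread more widely than the tamoxifen values. Polr1b, the second-largest subunit, had a change of 0.26, Polr1c, which is shared with RNA polymerase III, had 0.05, and Polr1e had -0.12. None of these passed.

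The ST calls were read under 15 other settings, and 14 to 18 of the 19 remained when 1 of the 6 ST libraries was left out. The lowest count, 14, came without tamoxifen library C. Rrp12 and Rrs1 each lost the call under 6 settings, Polr1a under 4, and Mphosph10 and Wdr43 under 1. The other 14 held it under every setting run, among them Tcof1 with adjusted p-values from 2.1e-06 to 0.00386. Leaving LT tamoxifen library A out of the shared fit gave 25 members, all 19 among them. ST tamoxifen libraries held 3611749 to 3982982 reads and ST oil libraries 2728800 to 3267591, and mitochondrial ribosomal RNA took 19.3% to 24.4% of reads in ST tamoxifen and 18.3% to 21.9% in ST oil libraries.

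Genes of the same pathway outside the 42 also rose in ST cells, and 0 fell. The share of all genes, to be set beside each list that follows, was 6.01% called higher and 3.6% lower. Of 39 other small-subunit factors 11 passed, led by Cirh1a (Utp4, a processome subunit) at 77.9 units in tamoxifen and 39.6 in oil, a change of 0.95 (adjusted p = 0.00102), with Utp14a at 0.61 and Bms1 at 0.72. Of 48 other large-subunit factors 8 passed, led by Sdad1 at 0.60, Gnl3l at 0.54 and Wdr18 at 0.70. Of 9 other snoRNP proteins and snoRNP assembly factors 3 passed, the helicases Ruvbl2 (0.59) and Ruvbl1 (0.55) and the H/ACA assembly factor Naf1 (0.82). These 3 lists had medians of 0.30, 0.30 and 0.21. Of 10 other RNA polymerase I subunits and initiation factors only Ubtf passed, the upstream binding factor of ribosomal DNA, at 118 units in tamoxifen and 82 in oil (0.53, adjusted p = 0.024), and the list's median was 0.07. RNA polymerase III had 2 of 21, Gtf3c4 (0.63) and Polr3b (0.47), and RNA polymerase II had 1 of 7, Polr2b (0.81). The exosome and RNase MRP list had 0 of 21 by limma, with 5 at an unadjusted p under 0.05, led by Rpp30 at 0.77 (adjusted p = 0.0563). The 5 subunits shared by the 3 polymerases had 0, with 0 at an unadjusted p under 0.05, led by Polr2k at -0.68.

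Genes of the cell cycle moved in the same libraries. Of 20 mitosis genes 9 rose in ST cells, led by Ccna2 at 0.95, Ccnb1 at 0.95 and Plk1 at 1.10, and the list summed to 4763 to 5073 units in ST tamoxifen and 2543 to 3154 in ST oil libraries. Of 20 DNA replication genes 7 rose, led by Mcm6, Mcm2 and Rrm1 at 0.58 to 0.64. Beside both lists, 6.01% of all genes were called higher. Neutrophil markers, all 9 in the table, summed to 463 to 616 units in ST tamoxifen and 248 to 507 in ST oil libraries, and 0 of the 9 passed by limma, with 0 at an unadjusted p under 0.05. Markers of macrophages and monocytes, all 8 in the table, summed to 136 to 165 units in ST tamoxifen and 101 to 117 in ST oil libraries, without overlap, and 0 of the 8 passed by limma, with 4 at an unadjusted p under 0.05. The nearest was Csf1r, the receptor of a macrophage growth factor, at 1.44 (adjusted p = 0.0516). Stem and progenitor markers summed to 2218 to 2470 units in ST tamoxifen and 2413 to 3091 in ST oil libraries, with 1 gene of 13 higher (Mecom, 0.74) and 1 lower (Meis1, -0.37). Erythroblast markers, 10 of 11 in the table, summed to 50.6 to 87.1 units in ST tamoxifen and 44.9 to 57.7 in ST oil libraries. Of these 10 genes 1 rose, the erythroid transcription factor Klf1, at 14.5 units in tamoxifen and 5.02 in oil (1.33, adjusted p = 0.031). The part of these lists in the members' change was not tested. Myc measured 335, 279 and 259 units in ST tamoxifen against 162, 184 and 228 in ST oil libraries, without overlap, a change of 0.61 (SE 0.19, adjusted p = 0.0508).

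In LT cells 0 of the 41 members passed by limma, where 0.139% of all genes were called higher and 0.277% lower, 0.416% in either direction. An unadjusted p under 0.05 was found for 14 members, against 1952 of all 14419 genes. edgeR called 1 member, Npm1, and DESeq2 called 7: Dkc1, Gnl3, Gtpbp4, Ncl, Nop56, Nop58 and Npm1. The change was above 0 for 38 members, with a median of 0.25 against -0.02 over all genes, and ran from -0.26 for Bop1 to 0.80 for Nop56. The 3 tamoxifen values lay above the 3 oil values for 15 members and below them for 0, against 9.04% and 9.36% of all genes. Nop58 came nearest to the threshold, at 342, 246 and 262 units in LT tamoxifen libraries A, B and C against 202, 195 and 193 in LT oil libraries, a change of 0.51 (SE 0.12, adjusted p = 0.0537). Npm1 measured 3822, 1767 and 2178 units in tamoxifen against 1618, 1521 and 1413 in oil, a change of 0.69 (SE 0.17, adjusted p = 0.0708). Neither gene's groups overlapped, and in both library A was the highest.

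Dkc1 measured 475, 289 and 278 units in LT tamoxifen against 239, 234 and 212 in LT oil libraries, a change of 0.56 (adjusted p = 0.081). Gtpbp4 measured 166, 104 and 118 units in tamoxifen against 101, 89 and 84.5 in oil, a change of 0.47 (adjusted p = 0.126). Wdr43, a processome subunit, measured 185, 145 and 180 units in tamoxifen against 138, 133 and 127 in oil, a change of 0.34 (adjusted p = 0.194). These 3 did not overlap between groups either. Polr1b measured 54, 49.8 and 53.1 units in tamoxifen and 35.3, 54.2 and 40.3 in oil, overlapping, a change of 0.29 (adjusted p = 0.517). LT tamoxifen library A was the highest of its group for 19 members, the lowest for 16 and in the middle for 6. In Nop56, library A measured 891 units against 374 and 384 in libraries B and C. In Nop2, a methyltransferase of large-subunit RNA, it measured 32.6 against 84.6 and 65.7. The 6 members annotated as hosts of small nucleolar RNAs (Nop56, Nop58, Ncl, Dkc1, Gnl3 and Wdr43) were all highest in library A. With libraries B and C only, 40 of 41 changes were above 0 and the median was 0.29. Without library A limma called 0 members, without library B it called 7, and without library C it called 1, Dkc1.

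The 20 mitosis genes had a median change of 0.59 in LT cells, with 0 past the threshold by limma and 15 at an unadjusted p under 0.05, and summed to 2365 to 4757 units in LT tamoxifen and 1532 to 1992 in LT oil libraries. Their part in the members' values was not tested. Myc measured 577, 301 and 324 units in LT tamoxifen against 232, 248 and 296 in LT oil libraries, a change of 0.57 (adjusted p = 0.174). Neutrophil markers summed to 14.7 to 32.9 units in LT tamoxifen and 31.6 to 77.4 in LT oil libraries. Stem and progenitor markers summed to 2656 to 2976 units in LT tamoxifen and 3595 to 4088 in LT oil libraries, without overlap. Of these 13 genes 1 fell, Kit (-0.55, adjusted p = 0.0159), 0 rose, and 10 had an unadjusted p under 0.05. The part of both marker lists in the members' values was not tested.

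In MPPs, after 1 week, 0 of the 41 members passed by limma, by edgeR or by DESeq2, where limma called 0.0555% of all genes, 0.0347% higher and 0.0208% lower. Of the members 3 had an unadjusted p under 0.05, against 819 of all 14419 genes. The change was above 0 for 39 members, with a median of 0.11 against 0 over all genes, and ran from -0.29 for Bop1 to 0.39 for Polr1c. The tamoxifen values lay above the oil values for 11 members and below them for 1, Tcof1, against 7.66% and 7.23% of all genes. Wdr75 had the smallest p, at 72.6, 61.4 and 60.6 units in MPP tamoxifen against 49.3, 50 and 55 in MPP oil libraries, a change of 0.33 (adjusted p = 0.842). Gar1 measured 35, 31.6 and 27.8 units in tamoxifen against 23.1, 24.5 and 23.9 in oil, a change of 0.38 (adjusted p = 0.861). Polr1c measured 32, 30.7 and 27.5 units in tamoxifen against 20.1, 26.8 and 21.8 in oil, a change of 0.39 (adjusted p = 0.861). The groups did not overlap in these 3 genes. Gnl3 measured 104, 90.8 and 106 units in MPP tamoxifen against 81.2, 86.1 and 87.5 in MPP oil libraries (0.24, adjusted p = 0.917). Nop56 measured 371, 328 and 344 units in tamoxifen against 295, 296 and 255 in oil (0.30, adjusted p = 0.959). Nop16 measured 23, 20.8 and 24.1 units in tamoxifen and 21.2, 14.8 and 18.3 in oil (0.32, adjusted p = 0.957), and of these 3 only Nop16 overlapped. Myc averaged 378 ± 54 units in MPP tamoxifen and 328 ± 45 in MPP oil libraries (SD, n = 3 each), a change of 0.20 (adjusted p = 0.975). Erythroblast markers, 10 of 11 in the table, summed to 27.9 to 455 units in MPP tamoxifen and 29.3 to 59.9 in MPP oil libraries, and 0 passed by limma, with 3 at an unadjusted p under 0.05. Markers of macrophages and monocytes summed to 138 to 221 units in MPP tamoxifen and 98.5 to 129 in MPP oil libraries, and stem and progenitor markers to 3351 to 3896 units in MPP tamoxifen and 3929 to 4188 in MPP oil libraries. Neither list overlapped between the groups, and in each 0 passed by limma, with 3 at an unadjusted p under 0.05. The part of these lists in the MPP values was not tested.

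Whether the tamoxifen effect differed between populations was tested directly. For ST minus LT cells 0 members passed by limma, where 0.0555% of all genes did (0.0416% higher and 0.0139% lower). Of the members 9 had an unadjusted p under 0.05, against 1860 of all 14419 genes. edgeR called 0 members and DESeq2 called 1, Tcof1. The differences had a median of 0.20 and ran from -0.50 to 0.78, the last for Tcof1 (SE 0.20, adjusted p = 0.0995). So the calls in ST and their absence in LT cells do not show that the effects differed. For ST cells minus MPPs, which also differ in weeks of treatment, 1 member passed, where 0.00694% of all genes did. It was Tcof1, the single gene of the whole table called there, with a difference of 1.17 (SE 0.20, adjusted p = 0.0441). Tcof1 rose by 0.92 in ST cells, and in MPPs it measured 97.6, 92.4 and 97.1 units with tamoxifen against 111, 133 and 98.9 with oil (-0.24, adjusted p = 0.931). The call was absent in edgeR, with the replicate block, and when any of 7 libraries was left out (MPP oil 1 or 2, MPP tamoxifen 1 or 2, ST oil A or B, ST tamoxifen C). DESeq2 called 7 members, and 8 passed when LT tamoxifen library A was left out of the shared fit. At an unadjusted p under 0.05 there were 16 members, against 1742 of all 14419 genes. For LT cells minus MPPs 0 members passed by limma, edgeR or DESeq2, and 0% of all genes did by limma. An unadjusted p under 0.05 was found for 5 members, against 808 of all 14419 genes.

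In oil alone, the members split between the populations. In ST against LT cells 10 members were higher and 10 lower, against 12.5% and 16% of all genes, with a median difference of -0.06. The groups did not overlap for 11 members that were higher and 13 that were lower, against 21.4% and 22.7% of all genes. The 10 higher were Nhp2 (0.84), Nop16 (0.82), Polr1c (0.80), Nop56 (0.72), Npm1 (0.68), Ebna1bp2 (0.67), Wdr12 (0.61), Nip7 (0.56), Gnl3 (0.55) and Nop58 (0.45). The 10 lower were Rrp12 (-0.98), Tcof1 (-0.89), Heatr1 (-0.82), Polr1a (-0.80), Utp20 (-0.78), Nolc1 (-0.75), Ddx21 (-0.72), Mybbp1a (-0.58), Polr1b (-0.56) and Utp15 (-0.50). Both directions occurred within a single complex: of the polymerase I subunits, Polr1c measured 40, 53.8 and 45 units in ST against 24.3, 27.6 and 26 in LT oil libraries, and Polr1a 86.4, 78 and 56.4 units in ST against 134, 139 and 110 in LT oil libraries. Neither gene's groups overlapped, and the adjusted p-values were 0.00141 and 0.000105.

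The split followed the length of the coding sequence. The 10 higher members had coding sequences of 459 to 1740 bases and the 10 lower ones 1584 to 8367 bases, in the GENCODE annotation. Over the 21 members of 1764 bases or less the median ST against LT difference was 0.45, and over the 20 longer ones it was -0.40, while short and long genes of the whole table had medians of 0.10 and -0.26. Spearman's rho between difference and coding length was -0.78 across the 41 members and -0.38 across the 12375 genes with a coding length, as a description across genes that share the same libraries. Trends on coding length and GC were then removed from each library. They were fitted over all genes, where rho was weaker, so their removal need not take out the members' own length pattern. After it 17 members passed, 9 higher and 8 lower. Tcof1 then had -0.48 (adjusted p = 0.00927), Heatr1 -0.40 (adjusted p = 0.0129) and Polr1c 0.77 (adjusted p = 0.000929), whereas Nhp2 at 0.39 (adjusted p = 0.0931) and Nop16 at 0.45 (adjusted p = 0.123) no longer passed. In the polymerase, Polr1a was then at -0.36 (adjusted p = 0.0488) and Polr1b at -0.20 (adjusted p = 0.44).

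**Figure D4:**
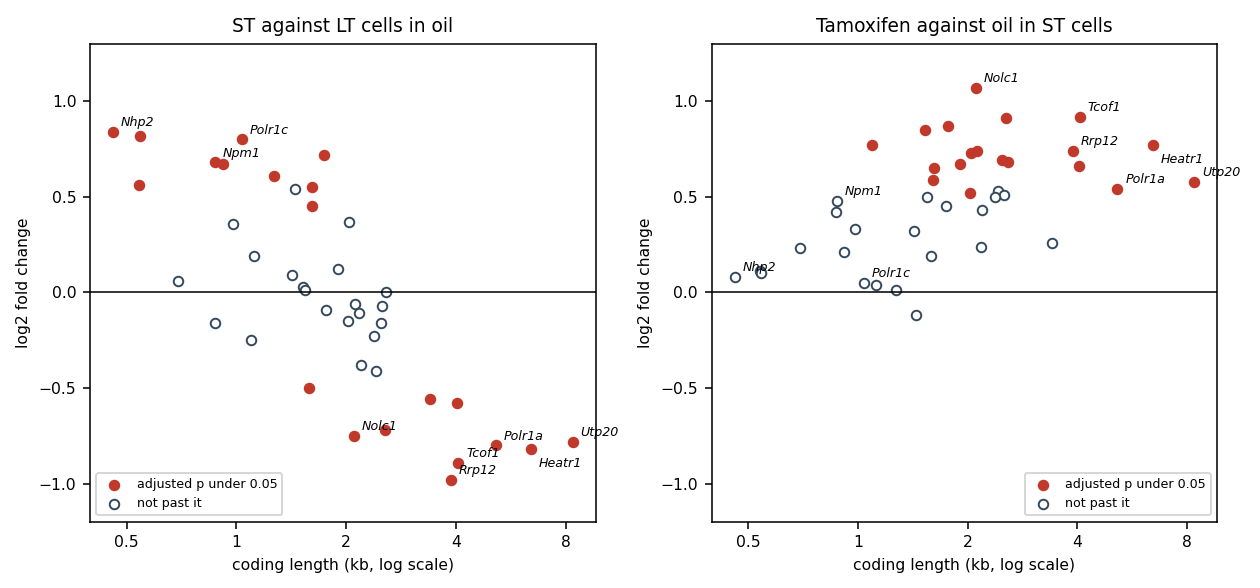
Each point is a member, with coding length in kilobases on a log axis and the log2 fold change of ST against LT cells in oil (left) or of tamoxifen against oil in ST cells (right); filled points have an adjusted p under 0.05. Long members such as Utp20, Heatr1 and Tcof1 were low in ST oil cells (-0.78, -0.82 and -0.89) and rose with tamoxifen (0.58, 0.77 and 0.92), and the short Nhp2 had 0.84 on the left and 0.08 on the right; 5 of the 21 shorter members also rose with tamoxifen.

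The tamoxifen change in ST cells uses the same ST oil libraries and ran the other way along coding length. The shorter members had a median tamoxifen change of 0.32 and the longer ones 0.66, against 0.04 and 0.08 in all genes, and 5 of the 21 shorter and 14 of the 20 longer members passed. Spearman's rho with coding length was 0.60 across members and 0.08 across all genes. With the length and GC trends removed, all 19 members remained past the threshold, Tcof1 at 0.92 (adjusted p = 9.14e-05) and Heatr1 at 0.67 (adjusted p = 0.000698). The trends were fitted over all genes, where rho with coding length was only 0.08. Their removal could therefore change the members little, and it does not take out the members' own length pattern. What lies behind the length pattern was not tested. In LT cells rho was -0.16 with coding length and -0.56 with GC content (-0.27 across all genes), and in MPPs it was -0.31 with coding length. Neutrophil markers summed to 248 to 507 units in ST oil and 31.6 to 77.4 in LT oil libraries, and mitosis genes to 2543 to 3154 in ST oil and 1532 to 1992 in LT oil libraries. Their part in the split was not tested.

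MPPs in oil were set against both stem cell populations, and the comparison with ST cells again shares the ST oil libraries. Oil was given for 1 week for MPPs and 2 weeks for ST and LT cells, so population and duration cannot be told apart. Against ST cells 7 members were higher and 14 lower in MPPs, where 16.8% and 13.9% of all genes were called. Tcof1 (1.21), Heatr1 (0.75), Polr1a (0.70) and Utp20 (0.67) had the largest positive differences, and Nhp2 (-1.09), Polr1c (-0.98) and Nop16 (-0.95) the largest negative ones. Spearman's rho of this difference with coding length was 0.77 across members and 0.37 across all genes. For MPPs against LT cells, a comparison without the ST oil libraries, it was 0.07 and 0.02. Here too the trends were fitted over all genes, and their removal need not take out the members' own length pattern. With them removed, 3 members were higher and 14 lower in MPPs than in ST cells. Tcof1 then had 0.93 (adjusted p = 6.16e-06) and Heatr1 0.32 (adjusted p = 0.0462), while Polr1a at 0.31 (adjusted p = 0.0934), Utp20 at 0.22 (adjusted p = 0.192) and Nop16 at -0.50 (adjusted p = 0.0844) no longer passed. Nhp2 had -0.56 and Polr1c -0.87, both past the threshold. Against LT cells 0 members were higher and 1 was lower in MPPs, Wdr75, where 7.76% and 7.01% of all genes were called. Wdr75 measured 49.3, 50 and 55 units in MPP oil against 69.1, 68 and 77.6 in LT oil libraries, without overlap, a difference of -0.47 (SE 0.14, adjusted p = 0.0254). The median difference from LT cells was -0.17, with 4 members at an unadjusted p under 0.05, against 3650 of all 14419 genes. Wdr75 missed the threshold without any 1 of MPP oil 1 or 2 or LT oil A, B or C. In all, 5 members passed when the oil groups of MPPs and LT cells were fitted alone.

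Tcof1 set side by side over the 6 groups averaged 93.1 ± 4.33 units in ST tamoxifen, 49.1 ± 8.92 in ST oil, 101 ± 9.47 in LT tamoxifen, 91.2 ± 8.24 in LT oil, 95.7 ± 2.84 in MPP tamoxifen and 114 ± 17.1 in MPP oil libraries (SD, n = 3 each). ST oil stood apart at the low end, and the other 5 groups lay within 91.2 to 114 with ranges that overlapped between neighbours. Heatr1 had 134 ± 6.5, 163 ± 13.6 and 141 ± 11.3 units with tamoxifen in ST cells, LT cells and MPPs, against 78.2 ± 8.71, 138 ± 8.35 and 132 ± 6.06 with oil in the same order. Here too ST oil was the lowest of the 6 groups. Nhp2 ran otherwise, at 54.9, 42.4 and 44.6 units in ST tamoxifen and 43.3, 50.9 and 39.4 in ST oil, against 26.8, 27.1 and 19.9 in LT oil and 20.7, 21.9 and 18.3 in MPP oil libraries. Its ST values, with either treatment, lay above all LT and MPP values in oil.

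For 16 members the annotation places a gene on the opposite strand that overlaps them, among them Dkc1, Gnl3, Heatr1, Mybbp1a, Nop14, Pes1, Polr1a and Wdr43. No source used here gives the strand setting of the counting, so reads from bases that such a pair shares may not be told apart. The overlaps are of whole gene spans, introns included, and whether exons overlap was not examined. Gtpbp4 has 7 annotated pseudogenes that carry its name, and its reads could have been split or shared with them. Pseudogenes annotated under other names were not searched for, so the other members could be affected as well.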

How the data were processed

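RNA of sorted bone marrow cells was sequenced in 18 libraries. Per the labels' protocols, RNA was taken with a Picopure kit and the Ovation RNA-Seq System V2 was used for amplification. The submitters' processing notes name cutadapt, Picard, RSEM 1.17, limma and the build NCBIM37. The deposited table holds a normalised signal per gene, scaled by a method not given in the sources used here. Every value was (a whole number of reads + 0.5) times 1 constant per library (100% of values, tolerance 0.001 reads), so whole-read counts could be recovered from the deposited values.

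Groups came from the sample titles, which open with numbers from 1 to 12 for MPP and LT libraries and from 1 to 6 for ST libraries. What these numbers stand for is not stated in the titles. All 14419 genes were fitted with limma 3.58.1 (R 4.3.3; trend and robust settings) on log2(value + 1), a scale that understates changes of low genes, with 6 group means and 12 residual degrees of freedom. Benjamini-Hochberg adjustment ran over all genes. Alternatives were a pseudocount of 0.5, a mean of at least 5, quantile normalisation, a replicate block, only the groups compared, edgeR 4.0.16 and DESeq2 1.42.0 on recovered reads, and leaving out each library. Removing length and GC trends, leaving LT tamoxifen library A out of the shared fit, and a block of LT and ST libraries with one label were chosen after seeing the data. The fit was tested on simulated data. Coding lengths and overlaps came from GENCODE vM21 (GRCm38), matched by gene ID, and promoters from RefSeq, matched by symbol. No coordinate was converted between builds.

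The members and all gene lists were chosen with earlier results of these data known. Values in every library are given for up to 3 members per role group with the smallest limma p among those past the threshold in a tamoxifen comparison, for the member with the smallest p where none passed, and for the members highest and lowest in mean level. Of each other list the text names up to 3 genes past the threshold by the same order, or the first. Myc is always given. Other members given by library were chosen after their values were seen. Depth limits the precision of the members with few reads.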

Additional observations from a re-analysis of the deposited data

Results flagged for a closer look

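The tamoxifen effect on Tcof1 differed between ST cells and MPPs in the limma test of the difference, at 1.17 on the log2 scale (95% interval 0.76 to 1.58, limma adjusted p = 0.0441 over 14419 genes). Tcof1 was higher in 3 of 3 ST tamoxifen libraries than in any ST oil library, and lower in 3 of 3 MPP tamoxifen libraries than in any MPP oil library. Such separation occurred for 14.8% of all genes (higher, ST cells) and 7.23% (lower, MPPs). In MPPs the groups nearly met, at 97.6 units at most with tamoxifen and 98.9 at least with oil. The MPP change of -0.24 did not pass (limma adjusted p = 0.931). ST oil libraries had the lowest mean of the 6 groups, 49.1 units. The call was lost in edgeR, with the replicate block, and when any 1 of 7 of the 12 libraries compared was left out. Treatment lasted 2 weeks for ST cells and 1 week for MPPs, so population and duration cannot be told apart.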

How the results depend on the processing

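None of the 19 members called with tamoxifen in ST cells changed sign under any setting run. The median difference of ST against LT cells in oil, -0.06, turned to 0.07 with length and GC trends removed and 0.02 without LT oil library B. With the trends removed, members near 0 there also changed sign, such as Ncl (0.06, against -0.06 with the trends kept) and Rrp1b (0.10, against -0.11). For tamoxifen in ST cells the 19 members became 14 to 18 when 1 library was left out, and 18 to 25 under the other settings. In LT cells the count of 0 became 1 with a mean of at least 5 (Nop58), 1 with quantile normalisation (Nop58), 1 with edgeR (Npm1), 7 with DESeq2 and 2 with length and GC trends removed (Dkc1 and Nop58), and 0 to 7 when 1 library was left out. For the ST minus LT difference DESeq2 called 1, and leaving out 1 library gave 0 to 1. For ST minus MPP the count of 1 became 0 with edgeR, 7 with DESeq2, 2 with only the groups compared, 8 with LT tamoxifen library A out of the shared fit, and 0 to 1 when 1 library was left out. For MPPs against LT cells in oil the count of 1 became 2 with quantile normalisation, 5 with only the groups compared, 2 with trends removed, and 0 to 1 when 1 library was left out. In these counts the cause was not tested. Over all genes, tamoxifen in ST cells called 1386 genes, 654 without oil library A, 904 without oil library B, 855 without tamoxifen library B, 669 without tamoxifen library C and 2121 with LT tamoxifen library A out of the shared fit.

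Correlations of same-label libraries between tamoxifen and oil groups ran from -0.03 to 0.13, so the labels were not taken to pair them. Between ST and LT cells of one treatment they were 0.05 to 0.14 for the same label, against -0.10 to 0.03 for other labels, and whether such libraries came from the same mice is not stated in the labels. With a block for them, chosen after seeing the data, 0 members passed for ST minus LT and 20 for ST against LT cells in oil. With the replicate block, 20 members passed in ST cells, 1 in LT cells (Npm1), 0 for ST minus MPP, 20 for ST against LT, 21 for MPPs against ST and 1 for MPPs against LT cells in oil.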

Other observations

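Other RNA-processing machinery also differed between the stem cell populations in oil. Across all genes the ST against LT difference fell with coding length (Spearman's rho -0.38), and no length trend was removed from the values below. The part of coding length in them was not tested. In ST against LT cells 9 of 21 exosome and RNase MRP genes were higher and 0 lower by limma, where 12.5% of all genes were called higher. Pop4, a protein of RNase MRP and RNase P, averaged 30.9 units in ST and 13.1 in LT cells (1.19, adjusted p = 0.000426), and the exosome subunits Exosc7 and Exosc8 differed by 0.95 and 0.74. Of the 5 subunits shared by the 3 nuclear RNA polymerases 3 were higher, led by Polr2k at 15.8 units in ST and 4.76 in LT cells (1.58, adjusted p = 0.000777). Of the other RNA polymerase I genes 3 of 10 were higher, Taf1d (1.17), Polr1d (0.79) and Znrd1 (0.75). Of the 7 subunits specific to RNA polymerase II 4 were higher and 2 lower, with a median of 0.72. The higher ones were Polr2d, Polr2g, Polr2i and Polr2j, at 0.72 (Polr2g) to 1.24 (Polr2i). The largest subunit, Polr2a, was lower at 153 units in ST and 314 in LT cells (-1.04, adjusted p = 2.41e-06), and Polr2b was lower too (-0.77, adjusted p = 0.000845). Of 20 mitosis genes 14 were higher, led by Cdk1 at 65.9 units in ST and 22.5 in LT cells (1.51).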
